A study of Canis lupus familiaris with 22 samples.

Results

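The 18 samples of invasive urothelial carcinoma (iUC) in the series were divided by the signal of a set of array controls, the Tag probe sets. These 17 probe sets match artificial sequences that are not part of the dog genome. Tumours with a mean Tag value of 0.2 or above formed the high-Tag set (7 of 18) and the others the low-Tag set (11 of 18). The whole series holds 22 samples, the other 4 being normal bladder. The high-Tag set consists of iUC replicates 3, 4, 5, 6, 7, 13 and 18. The division may reflect the background of the arrays, and so the controls are described before the biology. Since the Tag values chose the sets, differences in signal between the sets are given as a description and carry no test.

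The tumours were sampled through a cystoscope in pet dogs with naturally occurring, still untreated high-grade disease. Normal bladder was taken from healthy dogs of similar age. No age, breed or genotype is used here, and the dogs of a group are biological replicates. RNA of each sample, 5 µg, was hybridized to 1 Affymetrix canine array, on which groups of short probes (probe sets) report each transcript. The deposited values are on the log2 scale, and the authors had subtracted from every probe set the median of its 22 values. A value thus states how far an array lies from the middle of the series and gives no expression level. The array number limits the precision throughout.

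The normal bladder wall is lined by urothelium, in which basal cells lie on the matrix and luminal cells face the urine. Luminal cells carry uroplakins, keratin 7 and tight junction proteins, and depend on factors such as PPARG and GATA3. Basal cells carry other keratins, the factor TP63 and integrins. Smooth muscle lies beneath. Other genes, such as those of the ribosome, spliceosome and proteasome, serve every cell, while olfactory receptors and hormones of other organs are not expected in bladder.

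The mean Tag value was 0.28 at the lowest, 0.38 at the median and 0.46 at the highest array of the high-Tag set. In the low-Tag set it ran from -0.13 through -0.067 to 0.13, and in normal bladder from -0.21 to -0.077. The array just inside the threshold was iUC replicate 6 (0.28) and the array just outside was iUC replicate 16 (0.13). Of the 17 Tag probe sets, 8 had ranges that did not overlap between the sets, all higher in the high-Tag set. The differences of the 17 ran from 0.085 to 1.07.

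Other controls differed as well. The mean of 13 controls for GAPDH and actin, transcripts found in every cell, was -1.21, -0.78 and -0.63 at the lowest, median and highest high-Tag array. In the low-Tag set these values were -0.36, 0.20 and 0.32, so the sets lay apart. Of the 13, 4 were lower in every high-Tag array than in any low-Tag array. A further 9 control probe sets, for the adrenergic receptor, G6PDH and P450-2E1, behaved like the Tag probe sets, and 5 of the 9 lay apart and higher. So did 2 of 6 trp controls, and of 3 probe sets for elongation factor 1 alpha, 1 lay apart and higher and 2 lower. All 27 hybridization controls, which are added to each sample before hybridization, had lower means in the high-Tag set, by differences of -1.22 to -0.59. Their mean ran from -1.29 to -0.13 in the high-Tag set, from -1.01 to 1.18 in the low-Tag set and from 0.61 to 1.24 in normal bladder, and the ranges of each of the 27 overlapped between the iUC sets. The 36 labelling controls had differences of -1.50 to 1.24, and their ranges overlapped too. The difference between the signals of the GAPDH and actin probe sets at both ends of the transcript, a sign of RNA quality, ran from -0.60 to 0.072 in the high-Tag set and from -0.42 to 0.11 in the low-Tag set. These ranges overlapped. In normal bladder the values were -0.33, 0.97, 0.60 and 0.33 in replicates 1 to 4, so that 3 of the 4 normal samples lay above every tumour. The standard deviation over all probe sets of an array was 0.55 to 0.80 in the high-Tag set and 0.37 to 0.50 in the low-Tag set. It was 0.65 to 1.01 in normal bladder. The part of the array background in the results that follow was not tested.

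**Figure D1:**
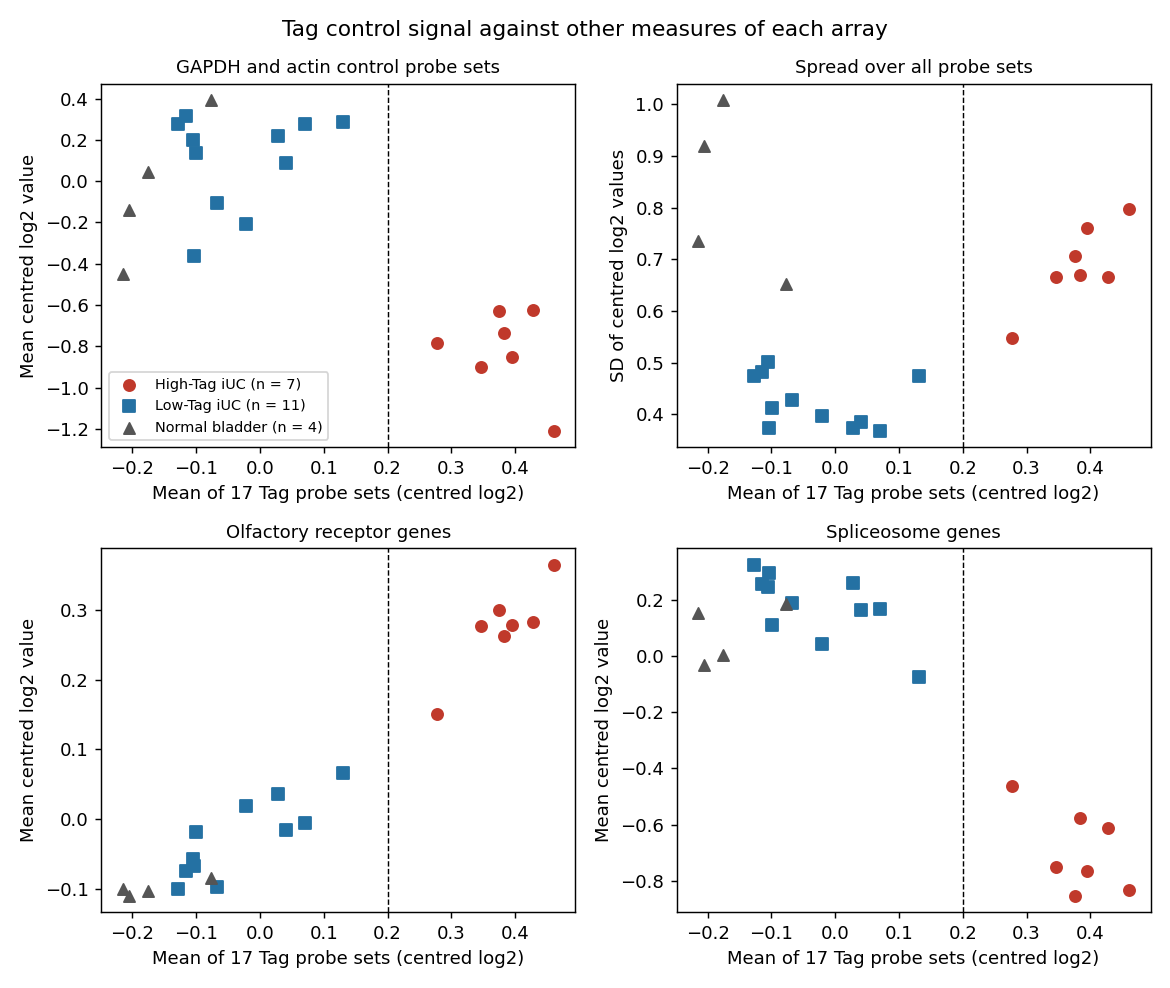
Mean of the Tag probe sets (x axis, centred log2 units) against 4 other measures of the same array (y axes, centred log2 units): GAPDH and actin controls, the standard deviation over probe sets, the mean of 311 olfactory receptor genes and the mean of 47 spliceosome genes. Each point is 1 array, and the dashed line marks the threshold of 0.2. The 7 high-Tag arrays lie below the 11 low-Tag arrays for GAPDH and actin and for spliceosome genes, and above them for the spread and for olfactory receptors.

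Within each set, the Tag mean was set against these 4 measures, as a description without a p-value, because the Tag values had formed the sets and the 2 gene lists were picked after their values had been seen. Over the 11 low-Tag arrays, Pearson's r with the olfactory receptor mean was 0.826 and Spearman's rho 0.827, and r was 0.75 without the 2 arrays farthest from the median Tag value. With the spliceosome mean r was -0.664 and rho -0.673, and r was -0.396 without the 2 farthest arrays. With the spread of the array r was -0.335 and rho -0.555, and r was -0.667 without the 2 farthest arrays. Over the 7 high-Tag arrays, r was 0.900 with the olfactory receptor mean and 0.844 with the spread, so that the relation to the spread had opposite signs in the sets. Both high-Tag values rested on the 2 farthest arrays, without which r was 0.050 and 0.092. Of the 8 relations computed, the other 3 had r of -0.561 for spliceosome genes in the high-Tag set and of -0.342 and 0.237 for GAPDH and actin in the high-Tag and low-Tag sets, and each of these 3 changed sign without the 2 farthest arrays.

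The sample identifiers in the labels hold a number in 7 tumours and a name in 11. Of the tumours with a number, 5 of 7 were high-Tag, against 2 of 11 with a name (two-sided Fisher's exact test, p = 0.0491). With the threshold moved to 0.1 or 0.3 the exact p was 0.145 and 0.141. What the 2 kinds of identifier stand for is not given in the labels.

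Over 15115 genes, a gene was taken as separated where all 7 high-Tag arrays lay on 1 side of all 11 low-Tag arrays and the means differed at least 2-fold. By this rule 400 genes (2.65%) were separated and higher in the high-Tag set and 1060 (7.01%) were separated and lower. Ranges lay apart, at any size of difference, for 2398 genes higher (15.9%) and 1937 lower (12.8%). The median difference over all genes was -0.014, with a 25th percentile of -0.65 and a 75th of 0.30, so the lower side had the longer reach. Without the 2 arrays nearest the threshold, 498 genes were higher and 1500 lower. Among tumours with a number the counts were 316 and 1752, and among tumours with a name 477 and 1766. Fewer arrays make it easier for ranges to lie apart.

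The balance of the 2 directions depended on the scaling. Genes higher in the high-Tag set made up 27.4% of the separated genes as deposited. After quantile normalization, which gives every array the same distribution, 632 genes were higher and 127 lower, a share of 83.3% higher. With each array divided by its standard deviation the counts were 1169 and 1382 (45.8%). Differences were then in units of the standard deviation and no longer in log2 units, so the bound was not 2-fold. The size of these counts therefore cannot be compared with that of the others.

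The largest difference toward the low-Tag set was that of CTSE. This gene, which encodes the protease cathepsin E, had -1.73, -0.97 and -0.67 at the lowest, median and highest high-Tag array. Its low-Tag values were 0.67, 3.05 and 4.41 and its normal values -1.94 to -0.96, so that the high-Tag tumours lay with normal bladder and the low-Tag tumours above both. The difference between the iUC sets was -3.88 (14.7-fold). CHST4, a sulfotransferase of selectin ligands, had -3.59, -1.29 and -0.034 in high-Tag tumours, 0.034, 1.05 and 1.83 in low-Tag tumours and -5.19 to -4.36 in normal bladder. Here the high-Tag tumours lay between the low-Tag tumours and normal bladder. LIPG, which encodes endothelial lipase, had -1.23 to -0.26 in high-Tag and 0.096 to 4.03 in low-Tag tumours, a difference of -2.92. TNFSF11, the ligand of RANK, differed by -2.71 and F2R, a thrombin receptor, by -2.28. In both genes the high-Tag values overlapped those of normal bladder.

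The list of 10 was drawn from genes whose ranges lay apart, and ADGRF1 (-2.32) and PTGS2 (-2.24) had differences of like size with overlapping ranges. Of the other genes in it, APOOL, a protein of the mitochondrial inner membrane, differed by -2.37, EGLN3, a prolyl hydroxylase of hypoxia-inducible factors, by -2.33 and DYNLT3, a dynein light chain, by -2.26. MPP5, a scaffold of epithelial polarity, differed by -2.23 and SYNCRIP, an RNA-binding protein, by -2.22. For DYNLT3 and SYNCRIP the low-Tag values (-0.87 to 1.29 and -0.18 to 1.00) took in the normal values (-0.17 to 0.81 and -0.15 to 0.40), and the high-Tag tumours lay below both.

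The 10 genes with the largest differences toward the high-Tag set are each reported by 1 probe set. MORC1, a chromatin protein of the male germ line, had 2.85, 2.99 and 3.15 at the lowest, median and highest high-Tag array and -1.12, -0.37 and 0.55 in the low-Tag set. The 7 high-Tag values thus spanned 0.30, while the sets differed by 3.28 (9.73-fold). TOX2, a DNA-binding protein, had 2.28 to 2.78 against -0.24 to 0.39, a difference of 2.68. OR10Q1, an olfactory receptor, had 2.17 to 2.34 against -0.63 to 0.53, a difference of 2.37. Next came SELENOV, a selenoprotein (2.31), KBTBD13, an adaptor of muscle (2.27), and MEX3B, an RNA-binding protein (2.24). H2BU1, a histone H2B (2.15), ZDHHC19, a palmitoyltransferase (2.10), FSHR, the receptor of follicle-stimulating hormone (2.10), and EOMES, a T-box factor (2.09), completed the 10. For each of these 10 genes the normal samples, all below 0, lay below every high-Tag array.

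**Figure D2:**
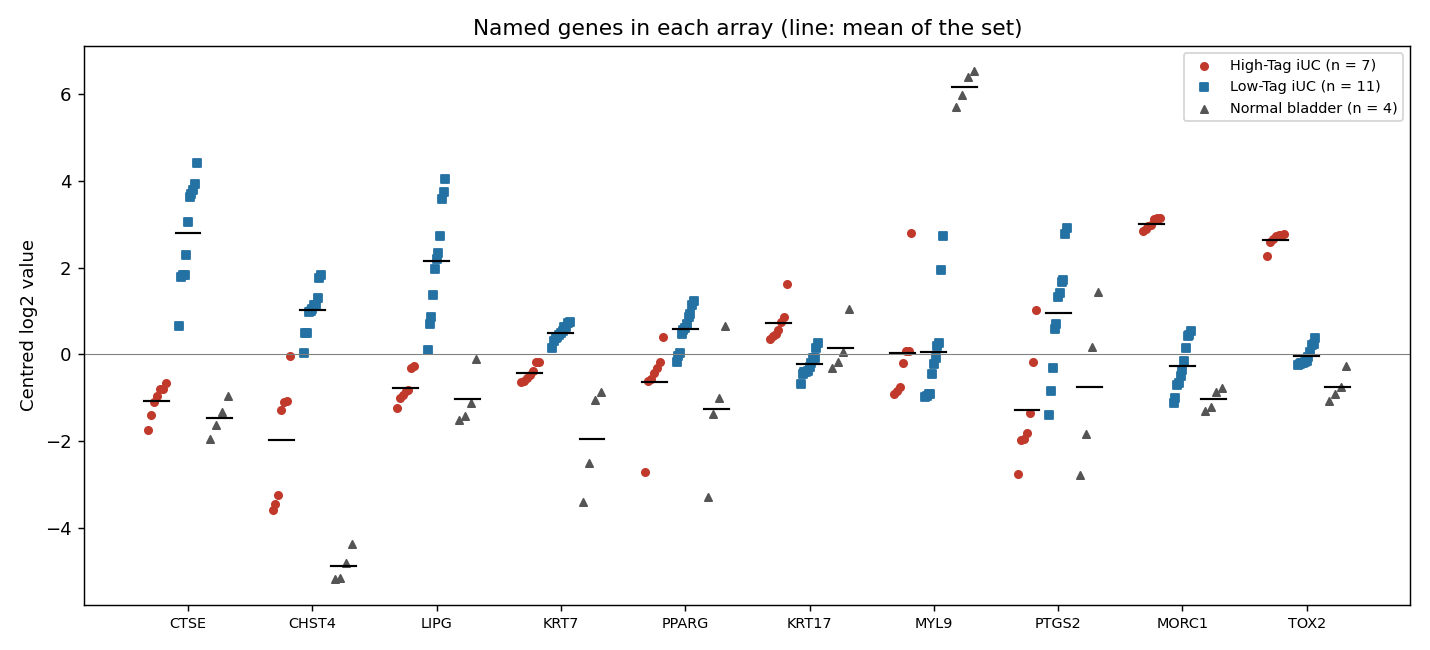
Centred log2 values (y axis) of 10 genes in each high-Tag iUC, low-Tag iUC and normal bladder array; points are arrays and lines are set means. The low-Tag tumours lie above the other samples for CTSE and CHST4, and the 7 high-Tag tumours lie above all others for MORC1 and TOX2, while MYL9 is at 5.71 or above in normal bladder alone.

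Genes not expected in bladder were shifted upward as a group. Of 311 olfactory receptor genes, 284 had a positive difference, with a median of 0.21, and ranges lay apart and higher in 109 (35.0%, against 15.9% over all genes). The list mean was 0.15 to 0.37 in high-Tag tumours, -0.10 to 0.066 in low-Tag tumours and -0.11 to -0.085 in normal bladder. Of 61 genes of other organs, 57 had a positive difference, with a median of 0.23, and 22 lay apart and higher. Among these were POMC, the pituitary hormone precursor (1.34 to 1.86 against -0.22 to 0.21), APOC3, an apolipoprotein of liver (1.27 to 1.67 against -0.34 to 0.23) and SLC12A1, a transporter of kidney (0.77 to 1.24 against -0.17 to 0.089). TG, thyroglobulin, had 1.09 to 1.55 against -0.34 to 0.25. All 4 probe sets of APOC3 and both of TG and of SLC12A1 were higher.

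Genes that serve every cell were shifted downward as groups. Of 34 proteasome genes, 22 lay apart and lower (64.7%, against 12.8% over all genes), with a median difference of -0.95. The counts were 28 of 47 spliceosome genes (median -0.91), 34 of 58 ribosomal protein genes (median -0.74), 26 of 73 mitochondrial ribosome genes (median -0.90) and 19 of 63 oxidative phosphorylation genes (median -0.79). Heat shock genes had 7 of 16 (median -1.02), reference genes of routine assays 7 of 15 (median -0.83) and genes of glycolysis and hypoxia 5 of 26 (median -0.89). Each of these 8 list means was lower in every high-Tag array than in any low-Tag array. For proteasome genes the means were -1.11 to -0.44 against 0.026 to 0.36, and for ribosomal protein genes -0.69 to -0.29 against -0.046 to 0.30.

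The single members that follow were among the 4 with the largest differences in their lists and had ranges apart. Their differences were thus larger in size than the list medians. SF3A3, a spliceosome subunit, had -2.05, -1.25 and -0.57 in high-Tag tumours, -0.13, 0.25 and 0.67 in low-Tag tumours and -0.15 to 0.32 in normal bladder. PSMC2, an ATPase of the proteasome, had -1.67 to -0.79 against -0.48 to 1.01, and RPL17, of the large ribosomal subunit, had -1.33 to -0.78 against -0.30 to 0.47. MRPL13, of the mitochondrial ribosome, had -2.50 to -0.94 against -0.46 to 0.68. In each of these 4 genes the high-Tag arrays lay below all 4 normal arrays. After quantile normalization the medians kept their direction, at -0.60 for proteasome, -0.59 for spliceosome and -0.42 for ribosomal protein genes, and at 0.25 for olfactory receptors. Genes both apart and at least 2-fold lower numbered 14 of 47 for the spliceosome and 2 of 58 for ribosomal proteins as deposited, and 1 and 0 after quantile normalization. Among all 15115 genes they made up 7.01% as deposited and numbered 127 after quantile normalization. The ribosomal protein counts lay below these shares.

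**Figure D3:**
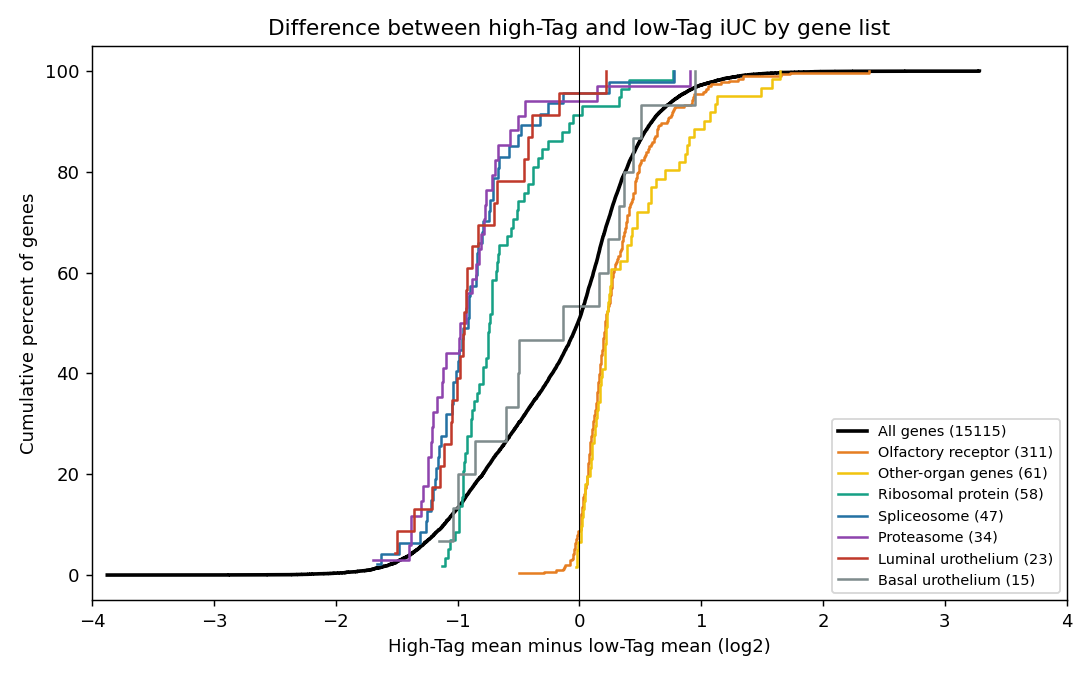
Cumulative percent of genes (y axis) against the difference of the high-Tag mean from the low-Tag mean (x axis, log2), for all 15115 genes and 7 gene lists. Olfactory receptor and other-organ genes lie to the right of 0, with medians of 0.21 and 0.23, whereas spliceosome, proteasome, ribosomal protein and luminal genes lie mostly to the left, with medians of -0.91, -0.95, -0.74 and -0.95.

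Among probe sets, 9.60% of the 29693 with a gene symbol were separated and lower, and 5.56% of the 13231 without one. The shares separated and higher were 3.84% and 4.50%.

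Of 23 luminal genes, 22 had a negative difference, the median was -0.95 and 4 were separated and lower (17.4%, against 7.01% over all genes). The lists of genes that serve every cell had medians of -1.02 to -0.74, a range that takes in the luminal median. The list mean was -1.32, -0.33 and -0.045 in high-Tag tumours and -0.28, 0.52 and 0.83 in low-Tag tumours, so these ranges overlapped. CLDN7, a tight junction protein, had -2.21 to -0.14 against 0.087 to 1.43, and EPCAM, an epithelial adhesion molecule, had -1.28 to -0.46 against -0.051 to 1.13. KRT7, keratin 7, had -0.63 to -0.17 against 0.15 to 0.75. For PPARG, a nuclear receptor of luminal cells, the ranges overlapped (-2.71 to 0.40 against -0.16 to 1.24), as for UPK3A, a uroplakin (-1.10 to 0.17 against -0.19 to 0.64). Without iUC replicate 4, the lowest high-Tag array, the luminal median was -0.74.

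The 15 basal genes had 7 positive differences and a median of -0.14, which became 0.059 after quantile normalization and 0.020 without iUC replicate 4. KRT17, a basal keratin with 3 probe sets, had 0.35, 0.56 and 1.63 in high-Tag and -0.67, -0.28 and 0.25 in low-Tag tumours. It was the only one of the 15 whose ranges lay apart (6.67% higher, against 15.9% of all genes). TP63 had -0.0063 to 0.55 against -0.22 to 0.23. In the study's own luminal list 9 of 28 genes lay apart and lower (32.1%), with a median of -0.91, among them CAPN5, a calpain protease (-1.50 to -0.19 against 0.19 to 1.15), and PPL, periplakin (-1.16 to -0.30 against 0.15 to 0.98). In its basal list 3 of 33 lay apart and higher and 3 apart and lower (9.09% each, against 15.9% and 12.8% of all genes), with a median of -0.18, which was 0.010 after quantile normalization. These lists were chosen by the study on the same samples and are no independent evidence of a direction.

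Of 16 measured genes in the study's list of P53 and RB pathways, 12 had a negative difference, with a median of -0.88. The list mean was -0.39 to -0.079 in high-Tag and 0.076 to 0.33 in low-Tag tumours, and so lay apart. MDM2, which marks P53 for degradation, had -1.69 to -0.49 in high-Tag and 0.014 to 1.85 in low-Tag tumours. BAX, an effector of apoptosis, had -1.32 to -0.74 against -0.18 to 0.69. E2F3, a cell cycle factor downstream of RB, had 1.43 to 1.95 against -0.43 to 0.27. In all, 4 lay apart and lower (25%, against 12.8% of all genes) and 3 apart and higher (18.8%, against 15.9%). The lists of genes that serve every cell had medians of -1.02 to -0.74 and 19.2% to 64.7% apart and lower. Both values of the P53 and RB list lay within these ranges.

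Markers of proliferation overlapped between the sets in all 26 cases, with a median difference of -0.85. Of all genes, 15.9% lay apart and higher and 12.8% apart and lower. TOP2A, a topoisomerase of dividing cells, had -1.85, -0.60 and 0.67 in high-Tag and -1.33, 0.99 and 1.75 in low-Tag tumours. CDC20, needed for entry into anaphase, had -1.36 to 0.066 against -0.59 to 2.93. Among receptors, EGFR had -0.98 to 0.39 against -0.50 to 1.05, ERBB2 had -0.73 to 0.076 against -0.40 to 1.06, and ERBB3 had -0.98 to 0.10 against -0.55 to 1.10. PTGS2, the inducible cyclooxygenase, had a large difference of -2.24, but its ranges overlapped widely (-2.76 to 1.02 against -1.41 to 2.92). PTGES, the prostaglandin E synthase downstream of it, lay apart (-1.42 to -0.52 against -0.29 to 1.30). Of 17 prostaglandin genes, however, 9 had a positive difference and the median was 0.068. In that list 2 lay apart and lower (11.8%, against 12.8% of all genes). SNAI1, a factor of epithelial-mesenchymal transition, lay apart and higher in the high-Tag set (1.01 to 1.42 against -0.44 to 0.52). Of the 10 genes in its list, 7 had a positive and 3 a negative difference, among the latter SNAI2 (-0.47). The median was 0.21 and 2 lay apart and higher (20%, against 15.9% of all genes). The means of this list overlapped between the sets.

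Markers of other cells in a biopsy gave median differences of -0.03 to 0.34. For olfactory receptor and other-organ genes, not expected in bladder, the medians were 0.21 and 0.23. The medians were 0.30 for 19 smooth muscle genes, 0.24 for 21 fibroblast and matrix genes, 0.20 for 14 endothelial genes, 0.30 for 21 T and NK cell genes, 0.34 for 10 B and plasma cell genes, 0.01 for 18 macrophage genes and -0.03 for 11 neutrophil genes. The sign turned for neutrophil genes after quantile normalization (0.020) and for macrophage genes after 75th percentile scaling (-0.049), and with the Tag threshold at 0.3 for fibroblast and matrix genes (-0.096). The list means of these 7 lists overlapped between the sets. The mean of 8 mast cell genes lay apart, at 0.092 to 0.38 in high-Tag and -0.16 to 0.075 in low-Tag tumours, with a median difference of 0.34. In normal bladder it was 0.48 to 1.06. Fewer cells of a type and less RNA per cell cannot be told apart in such samples. PDGFRA, a growth factor receptor of fibroblasts, ran against its list (-2.02 to 0.0022 against -0.0022 to 3.22). SYNPO2, an actin-binding protein, was the only smooth muscle gene with ranges apart (0.72 to 1.08 against -0.61 to 0.022). Smooth muscle genes thus lay apart and higher in 5.26%, against 15.9% of all genes. The high-Tag set held 2 tumours that stood out in these lists: iUC replicate 4 had the highest mean of B and plasma cell genes (1.25, next 0.26) and of T and NK cell genes (0.68, next 0.25), and iUC replicate 5 that of smooth muscle genes (1.04). Without replicate 4 the medians were 0.19 for B and plasma cell genes and 0.26 for T and NK cell genes. That of endothelial genes was 0.12 and that of macrophage genes -0.027. The separated genes then numbered 389 higher and 1106 lower.

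**Figure D4:**
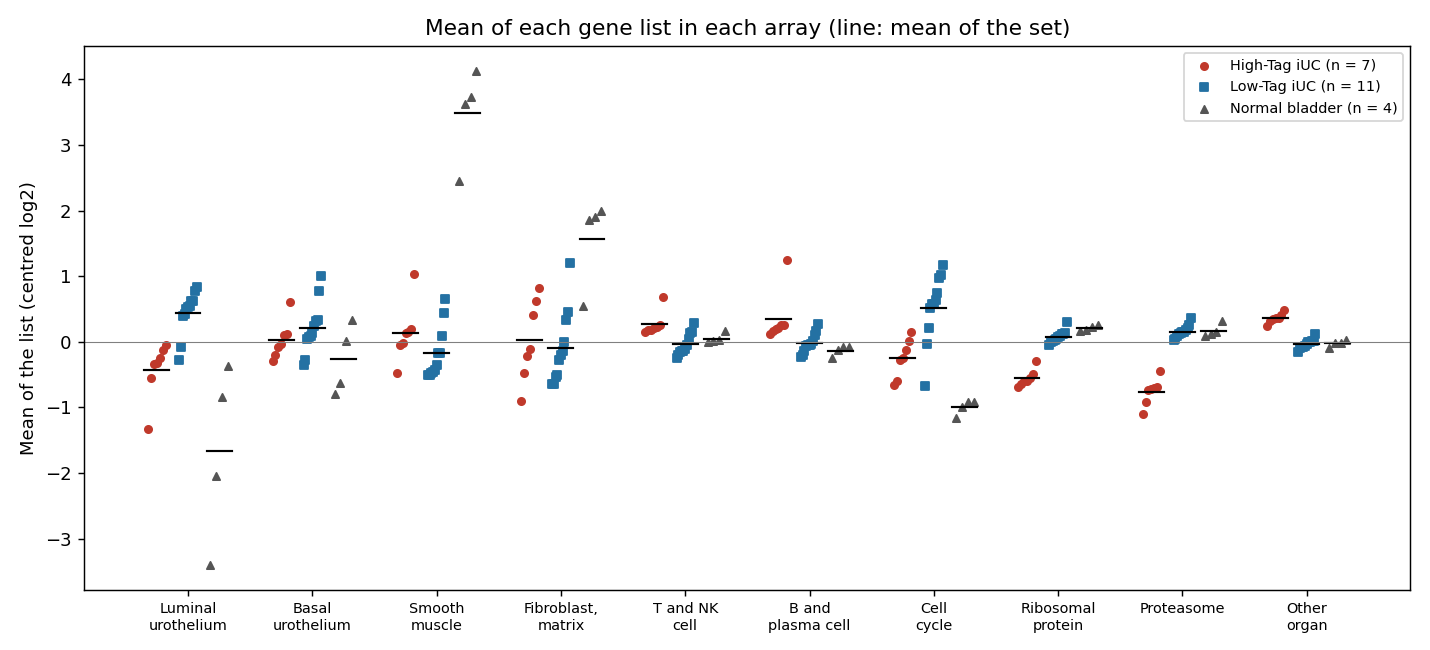
Mean centred log2 value (y axis) of 10 gene lists in each array of the 3 groups; points are arrays and lines are set means. Ribosomal protein, proteasome and other-organ means lie apart between the high-Tag and low-Tag tumours, the other 7 lists overlap, and smooth muscle genes are at 2.44 or above in normal bladder alone.

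Each set was then compared with the 4 normal samples in 1 limma fit of all 22 arrays, with Benjamini-Hochberg adjustment over 15115 genes. Calls required a difference of 2-fold or more and an adjusted p no higher than 0.05. In the high-Tag set 1086 genes rose (7.18%) and 2629 fell (17.4%). In the low-Tag set 814 rose (5.39%) and 913 fell (6.04%). The 2 comparisons share the normal samples, and the difference between them was not tested. The difference between control signals at both ends of the transcript was 0.33 to 0.97 in 3 normal samples and -0.33 in the other, against at most 0.11 in the tumours, and its part in these calls was not tested. The share of called genes that rose was 29.2% in the high-Tag set and 47.1% in the low-Tag set. After quantile normalization it was 49.7% (961 against 971) and 59.4% (655 against 447), and after scaling to the 75th percentile the low-Tag share was 59.5% (1082 against 736).

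The labels end in 2 ways, of which 1 is shared by the 18 tumours and normal bladder replicate 1. With this ending as a block, which leaves normal bladder replicate 1 as the sample set against the tumours, 554 genes rose and 1922 fell in the high-Tag set and 138 rose and 479 fell in the low-Tag set.

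**Figure D5:**
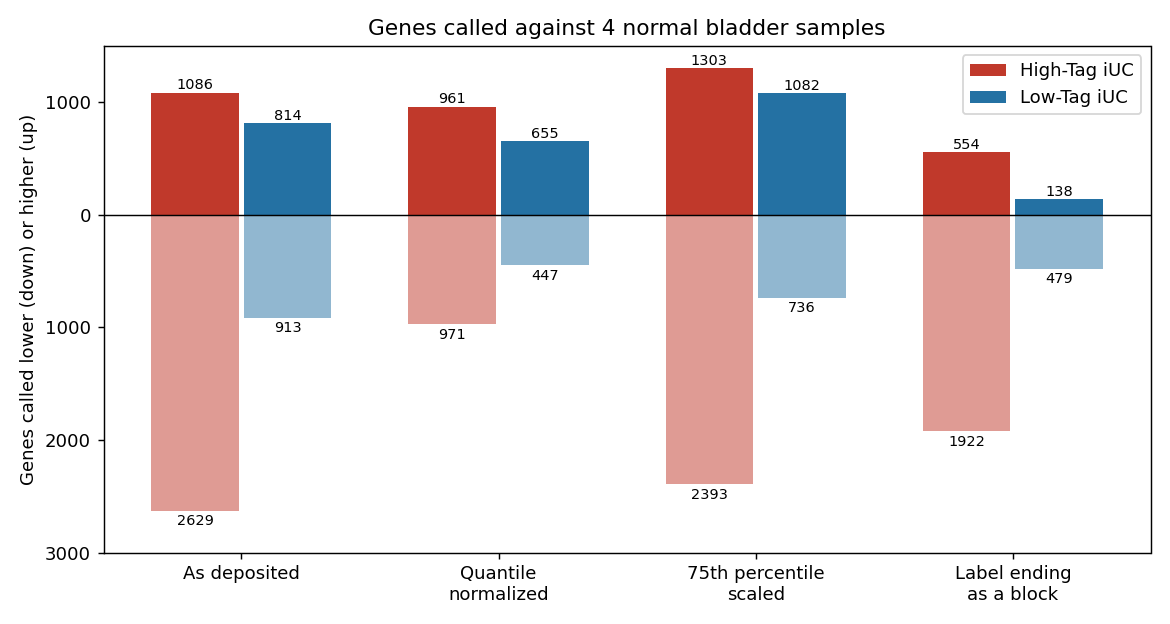
Number of genes called higher (bars upward) or lower (bars downward, lighter) than in normal bladder for the high-Tag and low-Tag tumours under 4 settings. As deposited, 2629 genes were lower in the high-Tag set and 913 in the low-Tag set, and after quantile normalization 971 and 447.

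Smooth muscle genes fell in both sets. Of 19 measured, 16 fell in the high-Tag set (median -3.48) and 17 in the low-Tag set (median -3.48), and none rose. Among all genes 17.4% fell in the high-Tag set and 6.04% in the low-Tag set. MYL9, a myosin light chain, fell by 6.12 (SE 0.69, limma adjusted p = 1.61e-07) in the high-Tag set and its difference in the low-Tag set was -6.10 (SE 0.64, limma adjusted p = 4.67e-07). DES, desmin, had differences of -5.00 and -5.99 and CNN1, calponin, of -5.29 and -6.17, all called. Fibroblast and matrix genes fell in 14 of 21 cases in each set. After quantile normalization smooth muscle genes still fell in 14 and 16 cases, whereas fibroblast and matrix genes fell in 2 of 21 in the high-Tag set and in 11 in the low-Tag set. With that scaling 971 and 447 of all 15115 genes fell, so the high-Tag count of fibroblast and matrix genes lay near the share of all genes.

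Luminal genes rose in 10 of 23 cases in the high-Tag set (median 1.18) and in 19 of 23 in the low-Tag set (median 2.19). The smooth muscle list mean was 2.44 to 4.13 in normal bladder and at most 1.04 in tumours. The part of muscle content in the rises given here was not tested. KRT7 rose by 1.53 (SE 0.30, limma adjusted p = 0.000163) in high-Tag and by 2.45 (SE 0.28, limma adjusted p = 1.55e-06) in low-Tag tumours. EPCAM had 0.83 (limma adjusted p = 0.11) and 2.19 (limma adjusted p = 0.000393). With the label ending as a block, normal bladder replicate 1 alone is set against the tumours. The difference of KRT7 was then 0.44 in the high-Tag set and 1.36 in the low-Tag set, below the 1.53 and 2.45 without the block. With 1 normal sample, this setting cannot decide whether luminal genes rose more often than other genes. PIGR, the transporter of polymeric immunoglobulins, rose by 3.45 and 4.02, and ADGRF1, an adhesion G protein-coupled receptor, by 2.68 and 5.00. ERBB2 rose by 1.03 and 1.81 and ERBB3 by 2.06 and 3.03. EGFR had 0.95 in the high-Tag set, below 2-fold, and rose by 1.09 in the low-Tag set (limma adjusted p = 0.0127 and 0.00671). Of 26 cell cycle genes, 10 rose and 2 fell in the high-Tag set, and 18 rose in the low-Tag set. Over all genes 7.18% rose and 17.4% fell in the high-Tag set, and 5.39% rose in the low-Tag set. TOP2A rose by 2.00 and 3.38. The label ending taken as a block left ERBB2 and EGFR called in neither set, TOP2A in the low-Tag set alone, and PIGR and ADGRF1 in both. ERBB2 in the high-Tag set and EGFR in the low-Tag set also fell short after quantile normalization (0.83 and 0.82) and without normal bladder replicate 3 (0.92 and 0.97) or 4 (0.78 and 0.80). EGFR in the high-Tag set lay near the bound and was called under 6 of the alternatives, at 1.03 after 75th percentile scaling, 1.05 and 1.25 without normal bladder replicate 1 and 2, 1.11 without iUC replicate 4, 1.22 with the replicate block and 1.27 with array weights. With the replicate block the high-Tag difference rests on iUC replicates 3 and 4 alone. EPCAM in the high-Tag set was called without normal bladder replicate 2, at 1.43, and with array weights, at 1.12.

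The genes that set the iUC sets apart stood differently to normal bladder. They were picked for their difference between the sets in the same arrays, so their p-values here are no independent evidence. CTSE had 0.40 in high-Tag tumours (SE 0.54, limma adjusted p = 0.525) and rose by 4.27 in low-Tag tumours (SE 0.50, limma adjusted p = 1.85e-06). LIPG had 0.26 (limma adjusted p = 0.711) and rose by 3.18 (limma adjusted p = 0.000154), a call lost with the label ending as a block (limma adjusted p = 0.238). CHST4 rose in both, by 2.91 and 5.90. MORC1 rose by 4.05 in high-Tag tumours (SE 0.27, limma adjusted p = 1.79e-10) and had 0.77 in low-Tag tumours, and TOX2 rose by 3.40 and had 0.72. EGLN3 fell by 1.15 in the high-Tag set (limma adjusted p = 0.003) and rose by 1.19 in the low-Tag set (limma adjusted p = 0.00309). MPP5 fell by 1.09 and rose by 1.13 in the same order. In the high-Tag set neither gene was called after quantile normalization (-0.60 for EGLN3 and -0.58 for MPP5), and the label ending as a block left them called in neither set.

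As deposited, genes that serve every cell were often called lower in the high-Tag set and seldom in the low-Tag set. Mitochondrial ribosome genes fell in 41 of 73 cases in the high-Tag set (median -1.28) and in 5 in the low-Tag set (median -0.33). Oxidative phosphorylation genes fell in 39 of 63 and 2 cases, ribosomal protein genes in 21 of 58 and 1 case, and spliceosome genes in 18 of 47 and 0 cases. Proteasome genes fell in 18 of 34 and 0 cases. Over all genes the share that fell as deposited was 17.4% and 6.04%. After quantile normalization the high-Tag counts were 20, 6, 1, 2 and 2 in the order given, against 971 of all 15115 genes. Ribosomal protein, spliceosome and proteasome genes then fell in no larger a share than all genes. Olfactory receptor genes rose in 24 of 311 cases in the high-Tag set and in 1 in the low-Tag set, against 7.18% and 5.39% of all genes. Genes of other organs rose in 10 of 61 and 0 cases.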

How the data were processed

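The authors hybridized RNA of 18 iUC and 4 normal samples to canine arrays, processed them in GeneSpring and deposited log2 values of 43035 probe sets, centred on the median of each. The methods of summarising probes and normalizing arrays were not given in the sources used here. After 111 controls were set aside, 42924 probe sets remained. Of these, 29254 had 1 gene symbol in the platform annotation, 439 several and 13231 none. Probe sets of 1 gene were averaged (15115 genes, 8254 with several). Centred values allow no filter on low expression. Tumours were grouped by the mean of the 17 Tag probe sets at 0.2. Each set was compared with normal bladder in limma 3.58.1 (R 4.3.3), tested on simulated data. The replicates are separate dogs. Correlations within a set are given without p-values.

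The sets, gene lists and settings were chosen with earlier results of these data known. Genes were named by size of difference: the 10 largest in each direction among genes with ranges apart and up to 4 in each list, with defining genes, genes the paper names and the largest calls against normal bladder. Of the 163 genes so chosen, part are given. UPK3A, TP63 and TOP2A were included as defining members. Alternatives were quantile normalization, 75th percentile scaling, array weights, probe sets in place of genes, the median of probe sets, a variance filter, other thresholds, omitted arrays, and the replicate number or label ending as a block. Python 3.11 and matplotlib 3.10.9 were used for tables and figures.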

Additional observations from a re-analysis of the deposited data

Results flagged for a closer look

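Single arrays far from the rest of their group were sought in 214 checks of the high-Tag and normal samples over array measures, list means and named genes. Chance marks about 1 in 20 groups, and 19 such values were found. Over all 163 genes chosen by the naming rule, 400 checks gave 41; the values below are limited to genes named here, a limit set after that count had been seen. The 11 low-Tag tumours are too many for this check.

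In the high-Tag set, iUC replicate 4 had the lowest luminal mean (-1.32, next -0.55) and the lowest PPARG (-2.71, next -0.61). It had the highest mean of B and plasma cell genes (1.25, next 0.26), of T and NK cell genes (0.68, next 0.25), the highest KRT17 (1.63, next 0.86) and the highest PTGES (-0.52, next -1.12). iUC replicate 5 had the highest smooth muscle genes, with MYL9 at 2.81 (next 0.090), DES at 2.20 (next 0.75) and CNN1 at 1.83 (next 0.47). iUC replicate 6, the high-Tag array nearest the threshold, had the lowest TOX2 (2.28, next 2.59), MEX3B (1.56, next 2.11) and SLC12A1 (0.77, next 1.07). iUC replicate 18 had the lowest CLDN7 (-2.21, next -1.01).

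Among normal samples, replicate 2 had the lowest fibroblast and matrix mean (0.54, next 1.85) and CNN1 (3.93, next 6.15). Replicate 1 had the highest mean of T and NK cell genes (0.17, next 0.020) and TP63 (-0.079, next -0.46), and the lowest array mean (0.077, next 0.12). Replicate 4 had the highest BAG3, a heat shock cochaperone (1.36, next 0.87).

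Among the lists and the genes named here, 7 had every high-Tag tumour on 1 side of the normal mean and every low-Tag tumour on the other. The difference was not tested. The share of all genes that met this rule is not given, so the count of 7 cannot be weighed. Ranges of the iUC sets lay apart for 15.9% of all genes higher and 12.8% lower in the high-Tag set. Against the normal mean, the glycolysis and hypoxia list had -0.41 in the high-Tag and 0.38 in the low-Tag set, and the reference genes -0.56 and 0.25. EGLN3 had -1.15 and 1.19, MPP5 -1.09 and 1.13 and MDM2 -1.03 and 0.79. HNRNPM, an RNA-binding protein of the spliceosome, had -0.47 and 1.02, and LDHA, lactate dehydrogenase, -0.81 and 0.58.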

How the results depend on the processing

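With probe sets in place of genes, 3632 rose and 8780 fell in the high-Tag set against normal bladder, 2243 rose and 3212 fell in the low-Tag set, and 1736 were higher and 3586 lower between the sets; more features were tested. Quantile normalization gave 971 falls in the high-Tag and 447 in the low-Tag set, and 632 higher and 127 lower between the sets. The label ending as a block, added after seeing the data, gave 554 rises in the high-Tag set and 138 rises and 479 falls in the low-Tag set. Division by the array's standard deviation gave 1169 genes higher, in units of the standard deviation. This count does not follow the 2-fold rule and cannot be compared with the others. With the Tag threshold at 0.1, 260 genes were higher and 487 lower, and at 0.3 241 and 532. Tumours with a number gave 1752 lower genes and those with a name 1766. The exact p for the identifier was 0.145 and 0.141 at these thresholds. The cause of these moves was not tested.

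Leaving out each normal sample gave 958 to 1322 rises and 2539 to 2811 falls in the high-Tag set, and 608 to 986 rises and 754 to 1131 falls in the low-Tag set. Without iUC replicate 4 or 5 the counts between the sets were 372 to 389 higher and 1026 to 1106 lower. Same-numbered tumour and normal samples did not deviate together (correlations -0.12 to 0.14 over 4 numbers), so the numbers pair no samples. The replicate block gave 1510 rises and 2457 falls in the high-Tag set and 7 and 5 in the low-Tag set. Only numbers 1 to 4 occur in both tumours and normal bladder. These counts thus rest on iUC replicates 3 and 4 in the high-Tag set and 1 and 2 in the low-Tag set. They do not describe the whole sets. Among the 20 largest differences between the sets, the largest calls against normal bladder and the lists with ranges apart, no direction was reversed under the alternatives run. Signals that stand near the background of an array cannot be told from it here, since centred values keep no level.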
